A study of Mus musculus with 12 samples.

Results

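Hepatocyte identity rests on a small group of transcription factors, and 9 of their genes are described here by the histone mark at their promoters in mouse liver. The genes are Hnf4a, Foxa1, Foxa2, Foxa3, Cebpa, Cebpb, Onecut1, Nr5a2 and Prox1, taken from 21911 protein-coding gene symbols of the GENCODE M21 annotation (mm10, GRCm38). They were chosen by name, and every H3K9ac peak that overlapped the gene body or the 5 kb on either side of the annotated gene start was assigned to the gene. This gave 241 of the 102889 peaks in 6 peak lists. Acetylation of histone H3 at lysine 9 (H3K9ac) was measured by ChIP-seq in liver of adult mice, with 1 library per mouse. The parental strains were C57BL/6J (B6, 2 mice), which is the strain of the reference genome, and MSM/Ms (MSM, 2 mice), an inbred line from wild mice of Japan. The reciprocal hybrids were F1 BM (1 mouse) and F1 MB (1 mouse), so hybrid values carry no replicate error. F1 BM is taken here to have a B6 mother and an MSM father, and F1 MB an MSM mother and a B6 father. None of the groups carried a treatment or a transgene in the labels, and the 6 input libraries of the series were not analysed here. Whole liver was used, so fewer cells of a type and less of the mark per cell cannot be told apart.

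These factors bind promoters and enhancers of liver genes together, and many of them bind the promoters of one another, which keeps the hepatocyte state stable. Hnf4a encodes a nuclear receptor required for hepatocyte differentiation and lipid metabolism. Foxa1, Foxa2 and Foxa3 encode forkhead proteins that can open closed chromatin, and Cebpa and Cebpb encode basic leucine zipper factors of metabolic genes and of the acute phase response. Onecut1 (HNF6) encodes a cut homeodomain factor of liver and bile duct development, Nr5a2 (LRH-1) a nuclear receptor that controls bile acid synthesis, and Prox1 a homeobox factor of hepatocytes and of lymphatic endothelium. H3K9ac lies on nucleosomes next to the start sites of transcribed genes, while the start site itself is often free of nucleosomes.

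The lists of the libraries were of unequal size, and this bears on every comparison below. Peak numbers ranged from 11619 in B6 mouse 2 to 22968 in B6 mouse 1, and the covered length ranged from 6.28 to 16.0 Mb in the same libraries. Both MSM lists lay between the B6 lists, at 9.66 and 9.69 Mb, and the hybrid lists (F1 BM, then F1 MB) covered 12.3 and 7.46 Mb. The median fold of all peaks was 3.38 in the F1 BM list and between 4.49 and 5.23 in the other lists, and its part in the fold values of F1 BM was not tested. Read depth was not part of the lists used, so absence of a region from a list may mean either no acetylation or too little of it for that library. The labelled tissue was checked against marker genes. All 6 hepatocyte markers found had a peak within 1 kb of the start in all 6 lists, as had 23.6% of all protein-coding genes. Their mean length under peaks ran from 5431 bp at Ahsg down to 2393 bp at Alb (1 further marker symbol, Tf, had no match). No peak in any list was found for 5 of 6 cholangiocyte markers, 5 of 7 Kupffer cell markers and 5 of 7 stellate cell markers, and the longest of these lists, Sox9, Spi1 and Hand2, had means of 243, 239 and 249.8 bp. Only 11446 of 21911 protein-coding genes had a peak in the window in at least 1 of the 4 parental lists. The share of genes without a peak in any of the 6 lists was not computed, so these counts have no usual rate beside them. The 8 endothelial markers summed to between 924 and 8584 bp in B6, to between 1484 and 3477 bp in MSM, to 7636 bp in F1 BM and to 2054 bp in F1 MB. In this sum, as in the lists as a whole, B6 mouse 1 was high and B6 mouse 2 was low. Single markers did not all follow it, as Erg had 924 bp in B6 mouse 2 and 528 bp in MSM mouse 1. Erg was the longest of the markers on the mean and Flt4, at 652 bp in B6 mouse 1 alone, the shortest.

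A peak within 1 kb of the annotated start was present in all 6 lists for 7 of the 9 genes, namely Foxa2, Foxa3, Cebpa, Cebpb, Onecut1, Nr5a2 and Prox1. The same held for 23.6% of all protein-coding genes. Foxa1 had such a peak in 3 lists (B6 mouse 1 and both MSM mice), but in all 6 lists when its RefSeq start, 805 bp after the annotated gene start, was used, and Hnf4a had none in any list. Each of the 9 genes had at least 1 peak somewhere in its window in every library, as had 28.5% of all protein-coding genes.

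The promoter sequences of Hnf4a and Nr5a2 are shown first because these genes have several annotated starts and acetylation separated them. Each is given 5′ to 3′ on the strand of the gene, from 250 bases before to 50 bases after the start site (GRCm38.p6; RefSeq promoter set, except the internal start of Nr5a2, which was cut from the same assembly at the GENCODE position). Capitals mark matches to the searched letters of HNF1 (GTTAAT), FOXA (TGTTTAC), C/EBP (TTGCGCAA), HNF4 (CAAAGTCCA), Onecut (ATCAAT), NR5A2 (CAAGGTCA) or the TATA box (TATAAA), on either strand.
Hnf4a upstream start, chr2:163506607-163506906, plus strand: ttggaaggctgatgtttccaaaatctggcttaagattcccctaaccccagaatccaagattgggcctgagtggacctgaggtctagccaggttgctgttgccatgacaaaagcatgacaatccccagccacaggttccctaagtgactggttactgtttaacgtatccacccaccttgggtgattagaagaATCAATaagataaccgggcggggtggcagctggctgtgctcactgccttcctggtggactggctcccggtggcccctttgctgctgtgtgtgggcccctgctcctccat
Hnf4a downstream start, chr2:163546905-163547204, plus strand: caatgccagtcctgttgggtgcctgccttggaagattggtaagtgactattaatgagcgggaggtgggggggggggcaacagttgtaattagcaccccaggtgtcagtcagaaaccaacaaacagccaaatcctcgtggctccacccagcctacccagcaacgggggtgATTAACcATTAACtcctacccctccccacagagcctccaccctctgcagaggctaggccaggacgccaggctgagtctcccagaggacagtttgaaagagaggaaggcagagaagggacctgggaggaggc
Nr5a2 gene start, chr1:136960399-136960698, minus strand: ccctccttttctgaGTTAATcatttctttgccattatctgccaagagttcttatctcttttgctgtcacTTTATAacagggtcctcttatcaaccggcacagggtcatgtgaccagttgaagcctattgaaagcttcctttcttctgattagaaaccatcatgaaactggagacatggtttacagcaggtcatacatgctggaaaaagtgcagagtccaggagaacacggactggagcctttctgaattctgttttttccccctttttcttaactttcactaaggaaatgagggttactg
Nr5a2 start at +6818 bp, chr1:136953581-136953880, minus strand: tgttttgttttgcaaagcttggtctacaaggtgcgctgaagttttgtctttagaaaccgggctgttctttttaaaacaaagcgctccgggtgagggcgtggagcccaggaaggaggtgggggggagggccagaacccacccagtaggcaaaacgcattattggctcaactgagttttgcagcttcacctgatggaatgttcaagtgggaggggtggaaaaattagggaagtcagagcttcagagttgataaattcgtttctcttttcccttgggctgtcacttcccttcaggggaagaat
Nr5a2 internal start at +10886 bp, chr1:136949513-136949812, minus strand: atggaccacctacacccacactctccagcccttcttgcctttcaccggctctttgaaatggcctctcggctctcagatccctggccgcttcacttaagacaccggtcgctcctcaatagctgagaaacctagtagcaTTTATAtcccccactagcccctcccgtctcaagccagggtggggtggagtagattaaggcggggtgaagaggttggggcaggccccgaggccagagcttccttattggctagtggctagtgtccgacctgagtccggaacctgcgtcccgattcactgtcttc

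At Hnf4a (ENSMUSG00000017950.16, chr2:163506808-163572910, plus strand), acetylation lay at the downstream start and not at the upstream one. The mouse gene is known for an upstream promoter (P2) and a downstream promoter (P1), and the downstream one is the main promoter of adult liver. No list had a peak within 5 kb of the upstream start. The region chr2:163547167-163552070, from 40359 to 45262 bp after the gene start over a UTR and coding exons, was acetylated in all 6 lists. Its length under peaks was 4904 and 3285 bp in the B6 mice, 4214 and 4127 bp in the MSM mice, 4470 bp in the F1 BM and 3495 bp in the F1 MB hybrid. The B6 mice held the longest and the shortest value, with both MSM mice between them. Within 5 kb of the first start of the downstream group, 40009 bp after the gene start, the acetylated length was at the 98.6th to the 99.4th percentile of gene starts with any acetylation in the same list.

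The same gene had a second block of acetylation in the intron before that start. The region chr2:163538604-163542347 (31796 to 35539 bp after the gene start) had 2882 to 3634 bp under peaks, and the neighbouring region chr2:163537337-163538513 had 915 to 1177 bp, both in all 6 lists. The start of the antisense gene Hnf4aos lies 34912 bp after the gene start of Hnf4a and within the former block, and a peak does not carry strand, so the acetylation cannot be ascribed to either gene. Of the 10 acetylated regions of the window, 3 were in all 6 lists and 3 in a lone list.

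Summed over its window, Hnf4a had 11678 and 7082 bp under peaks in the B6 mice, 10128 and 9025 bp in the MSM mice, 12851 bp in the F1 BM and 8136 bp in the F1 MB hybrid. The strains overlapped, and MSM exceeded B6 by 196.5 bp, against a pooled SD within strains of 2363 bp (exact permutation test, two-sided, p = 1). The highest fold enrichment, which is the linear ratio of a peak's summit over the background, was 14.3 and 12.4 in B6, 16.1 and 14.1 in MSM, 14.2 in the F1 BM and 12.3 in the F1 MB hybrid. These were at the 93.5th to the 99.9th percentile of genes with a peak in the same list, and the strains overlapped. The 5 genes outside the gene lists whose lengths were most like those of Hnf4a across the 6 libraries were Serpina1b, Col18a1, Gucd1, Sdc4 and Mat1a, measured by the largest fold between the lengths in any library (1 bp added), which ran from 1.15 for Serpina1b to 1.32 for Mat1a.

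**Figure D1:**
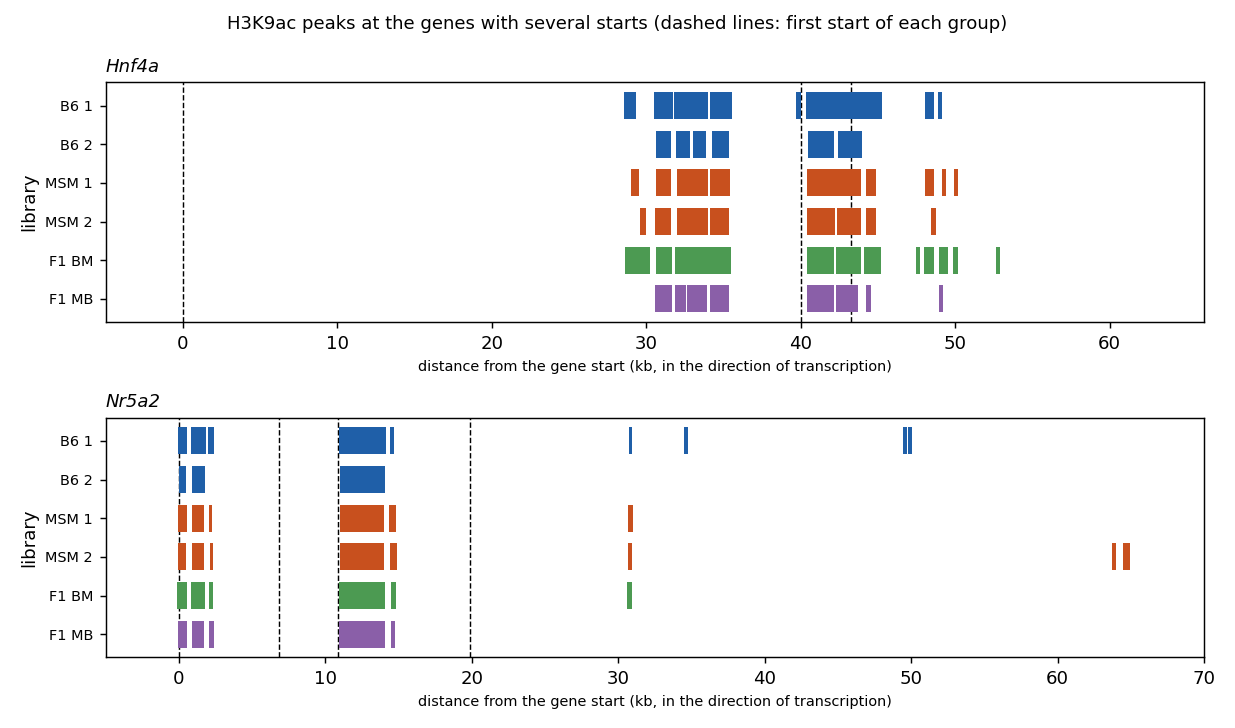
H3K9ac peaks of each library (1 row per library, coloured boxes) over Hnf4a and Nr5a2, by distance from the gene start in kb, with dashed lines at the first start of each group of annotated transcript starts. At Hnf4a the 6 rows are empty around 0 and filled around the starts at 40009 and 43275 bp, and at Nr5a2 they are filled at 0 and from just after the start at 10886 bp, the first peak there beginning at 10935 bp, but not at 6818 or 19865 bp.

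At Nr5a2 (ENSMUSG00000026398.14, chr1:136842571-136960448, minus strand), both the gene start and an internal start were acetylated. Within 1 kb of the gene start, the length under peaks was 883 and 699 bp in the B6 mice, 816 and 780 bp in the MSM mice, 911 bp in the F1 BM and 758 bp in the F1 MB hybrid. The longest block, chr1:136946338-136949513 (10935 to 14110 bp after the gene start, over a UTR and a coding exon), followed the internal start. It held 3176 and 3046 bp in B6, 3045 and 2981 bp in MSM, 3101 bp in the F1 BM and 3111 bp in the F1 MB hybrid. These values lay close together, although the covered length of the lists ranged from 6.28 to 16.0 Mb. The starts at 6818 and 19865 bp had no peak within 1 kb in any list.

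The whole window of Nr5a2 held 6611 and 4474 bp under peaks in B6, 5528 and 6081 bp in MSM, 5743 bp in the F1 BM and 5139 bp in the F1 MB hybrid. The strains overlapped, with a difference of 262 bp and a pooled SD within strains of 1104 bp (exact permutation test, two-sided, p = 1). Its highest fold was 16.5 and 8.35 in B6, 12.2 and 9.21 in MSM, 12.5 in the F1 BM and 11.9 in the F1 MB hybrid, again with overlap. Of 11 regions, 3 were in all 6 lists and 5, all intronic and of at most 459 bp, were in a lone list.

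In the printed sequences the base composition differed from that of most members. The ratio of observed to expected CpG was 0.183 at the upstream and 0.163 at the downstream start of Hnf4a, and at Nr5a2 it was 0.152 at the gene start, 0.412 at +6818 bp and 0.495 at the internal start. The median over 20150 promoters of protein-coding genes was 0.588. The remaining members lay between 0.548 (a start of Foxa2) and 1.03 (Cebpb). Acetylated and unacetylated starts therefore overlapped in this ratio, with 13 of the 15 member promoters having a peak within 1 kb in all 6 lists at ratios of 0.152 to 1.03 and the other two at 0.183 and 0.412. These 15 promoters belong to 9 genes and are not separate cases. The share of all 20150 promoters with such a peak was not computed, so this count has no usual rate beside it. The downstream start of Hnf4a had a pair of neighbouring matches to GTTAAT on the opposite strand, beginning at -81 and -74 from the start site. Matches to these letters also stood before the Nr5a2 gene start and a start of Foxa2, and 6.15% of all promoters held one. The letters TATAAA were found in 7 of the 15 member promoters and in 12.1% of all, the FOXA letters only in that of Foxa1 (2.96% of all) and the Onecut letters at the upstream start of Hnf4a and at Foxa2 (6.31% of all). The C/EBP, HNF4 and NR5A2 letters were in no member promoter, and in 0.233%, 0.471% and 1.25% of all promoters. A match describes letters in this window and says nothing on binding.

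Around the gene start, in windows of equal size, Prox1 and the C/EBP genes had the longest acetylation on the mean over the 6 libraries. For Cebpb this did not hold in MSM, where Onecut1 (4603 and 4819 bp) exceeded Cebpb (3962 and 4264 bp) in both mice. In the other 4 libraries Cebpb exceeded Onecut1. The mean length within 5 kb of the gene start was 6039 ± 715 bp for Prox1, 5465 ± 723 bp for Cebpa and 4296 ± 687 bp for Cebpb (SD over the 6 libraries). That spread is taken over libraries of unequal list size, and the genes were not paired by library in it. Prox1 and Cebpa did not differ beyond that spread, although Prox1 exceeded Cebpa in 5 of 6 libraries. Cebpa exceeded Cebpb by 1169 bp, beyond the pooled SD of 705 bp and in 6 of 6 libraries. Then followed Onecut1 (3158 ± 1737 bp), Foxa1 (3124 ± 1311 bp), Foxa2 (2725 ± 1282 bp), Foxa3 (1813 ± 873 bp) and Nr5a2 (1759 ± 224 bp), and no neighbours in this order from Cebpb to Nr5a2 differed beyond their spread, although Foxa2 exceeded Foxa3 in 6 of 6 libraries. Hnf4a was last, at 0 bp in every library, but this holds only for its annotated, upstream start. Within 5 kb of its downstream start it had 4473 ± 671 bp, close to the value of Cebpb. Prox1, Cebpa and Cebpb were above the 95th percentile of gene starts in all 6 lists, that is 3 of the 8 members with acetylation there, against 3.53% of 5715 genes. This percentile was chosen after the values were seen.

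At Cebpa (ENSMUSG00000034957.10, chr7:35119293-35121928, plus strand), blocks of acetylation flanked a start that no list covered. They are chr7:35116860-35119142, ending at -151 bp from the gene start, and chr7:35119331-35123422, beginning 38 bp after it and reaching over the UTR and the coding exon of this gene without introns. The promoter sequence of the gap between them is shown because it holds the uncovered start, with the letters TATAAA in capitals, beginning at -30 from it.
Cebpa start, chr7:35119043-35119342, plus strand: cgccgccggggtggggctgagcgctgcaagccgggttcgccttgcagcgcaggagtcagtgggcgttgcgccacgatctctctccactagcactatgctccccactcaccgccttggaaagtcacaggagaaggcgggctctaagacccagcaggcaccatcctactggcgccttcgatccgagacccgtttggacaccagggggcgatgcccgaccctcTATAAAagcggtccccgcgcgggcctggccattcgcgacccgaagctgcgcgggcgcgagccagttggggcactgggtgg

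Cebpa had 6375 and 4282 bp under peaks in the B6 mice, 5936 and 5524 bp in the MSM mice, 5587 bp in the F1 BM and 5083 bp in the F1 MB hybrid. The MSM mice lay between the B6 mice, and the strains differed by 401.5 bp, against a pooled SD within strains of 1067 bp (exact permutation test, two-sided, p = 1). Between 42.8% and 63.7% of its window was under peaks. Its highest fold was 16.3 and 8.50 in B6, 12.9 and 11.7 in MSM, 5.86 in the F1 BM and 9.49 in the F1 MB hybrid, so that B6 spanned MSM and F1 BM, the list with the lowest median fold, was lowest. The antisense gene Gm45091 overlaps this start.

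Members differed in whether the start base itself was covered. It lay under a peak in all 6 lists at Nr5a2 and Prox1, which is 2 of 9 members, against 2.59% of protein-coding genes. It was covered in 5 lists at Foxa2, in 3 at Onecut1, in 2 at Cebpb and in none at Hnf4a, Foxa1, Foxa3 and Cebpa.

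Cebpb (ENSMUSG00000056501.3, chr2:167688915-167690418, plus strand) had 5253 and 3214 bp under peaks in B6, 3962 and 4264 bp in MSM, 4398 bp in the F1 BM and 4684 bp in the F1 MB hybrid. The strains overlapped and differed by -120.5 bp (MSM minus B6), against a pooled SD of 1031 bp (exact permutation test, two-sided, p = 1). Its highest fold was 11.7 and 11.2 in B6, 8.76 and 11.6 in MSM, 10.1 in the F1 BM and 7.08 in the F1 MB hybrid, with overlap. Tmem189 overlaps the gene, and the long non-coding RNA gene A530013C23Rik starts 2262 bp after its start, inside the acetylated region chr2:167687878-167692504.

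**Figure D2:**
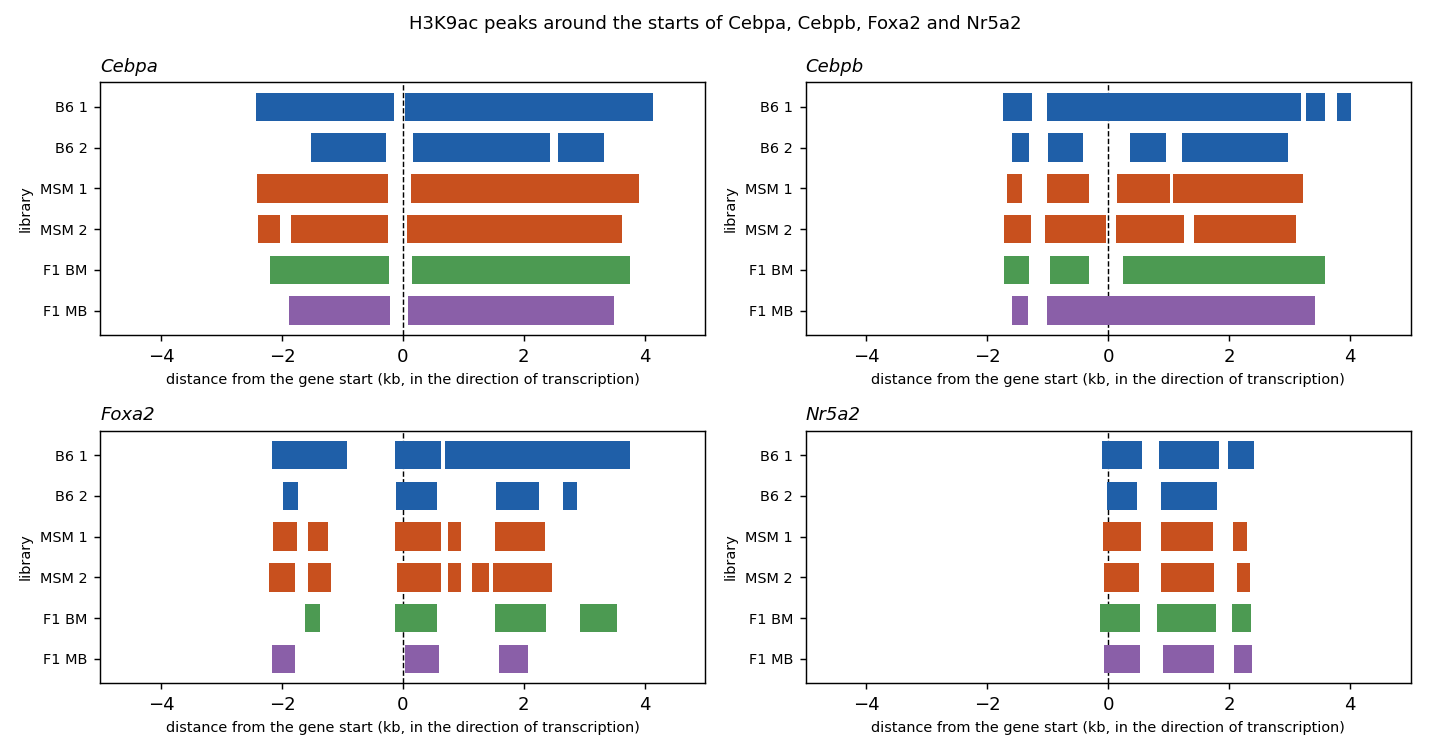
H3K9ac peaks of each library (rows, coloured boxes) within 5 kb of the gene start of Cebpa, Cebpb, Foxa2 and Nr5a2, by distance from the start in kb, with dashed lines at annotated starts. At Cebpa every row leaves the start uncovered between -151 and 38 bp, whereas every row covers the start of Nr5a2.

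Among the Foxa genes, Foxa2 (ENSMUSG00000037025.11, chr2:148042877-148046969, minus strand) had acetylation in 3 regions that were each in all 6 lists. It had 5085 and 1879 bp under peaks in the B6 mice, 2521 and 3031 bp in the MSM mice, 2406 bp in the F1 BM and 1425 bp in the F1 MB hybrid. B6 mouse 1 was the highest and F1 MB the lowest, and the strains overlapped (MSM minus B6 -706 bp, pooled SD 1623 bp, exact permutation test, two-sided, p = 1). Its highest fold was 19.0 and 10.2 in B6, 11.5 and 7.88 in MSM, 7.09 in the F1 BM and 6.10 in the F1 MB hybrid. The value of 19.0 was the highest of all members in any library, but the strains overlapped (exact permutation test, two-sided, p = 0.667).

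The comparison of the strains asked whether the acetylated length or height of these genes differs between B6 and MSM. The exact permutation test on 4 libraries allows no p below 0.333 and so cannot pass 0.05, and differences were set against the spread between replicates and called only where both mice of a strain lay above both of the other. The acetylated length was greater in both MSM mice for Foxa1 and Onecut1 (2 of 9 members, 4.97% of 11446 genes) and in both B6 mice for Prox1 (1 of 9, 11.6% of genes). The highest fold was greater in both B6 mice for Foxa3 (1 of 9, 9.29% of genes) and in both MSM mice for none (8.57% of genes). The other 6 genes overlapped in length and the other 8 in fold. The counts for B6 were near the share among all genes, and the count for MSM in length rested on Foxa1 and Onecut1 alone.

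Onecut1 (ENSMUSG00000043013.10, chr9:74861921-74891781, plus strand) had 5266 and 1409 bp under peaks in the B6 mice, 5393 and 6757 bp in the MSM mice, 3047 bp in the F1 BM and 872 bp in the F1 MB hybrid. Both MSM mice lay above both B6 mice, B6 mouse 1 was close to MSM mouse 1, and both hybrids lay below MSM. MSM exceeded B6 by 2738 bp, 1.82-fold, against a pooled SD within strains of 2046 bp (exact permutation test, two-sided, p = 0.333, which is the lowest attainable). The difference was 809 bp without B6 mouse 2 and 4666 bp without B6 mouse 1. Most of the difference lay inside the gene. The region over the start and the UTR and coding exon, chr9:74861871-74865575, was in all 6 lists, with 3375 and 1409 bp in B6 and 3598 and 3562 bp in MSM. The exonic region chr9:74865817-74866766, which holds an annotated start 4563 bp after the gene start, was listed in B6 mouse 1 (888 bp) and in both MSM mice (769 and 927 bp), and not in B6 mouse 2 or the hybrids. The long non-coding RNA gene Gm20649 lies over most of the gene.

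The domain of Onecut1, with peaks up to 500 bp apart joined, reached 5787 and 996 bp downstream of the start in B6, 5916 and 6765 bp in MSM, 3599 bp in the F1 BM and 415 bp in the F1 MB hybrid. The strains did not overlap, but the gap was below the 200 bp required for a call. Its highest fold was 9.95 and 5.31 in B6, 9.86 and 10.9 in MSM, 3.63 in the F1 BM and 5.55 in the F1 MB hybrid, so in height the strains overlapped and the hybrids were among the lowest.

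Foxa1 (ENSMUSG00000035451.7, chr12:57540628-57546916, minus strand) had 4533 and 1617 bp under peaks in the B6 mice, 4939 and 5428 bp in the MSM mice, 3722 bp in the F1 BM and 1490 bp in the F1 MB hybrid. Both MSM mice lay above both B6 mice and both hybrids. The difference was 2109 bp, 1.69-fold, with a pooled SD within strains of 1478 bp (exact permutation test, two-sided, p = 0.333, which is the lowest attainable). It was 650.5 bp without B6 mouse 2 and 3566.5 bp without B6 mouse 1. Most of the difference over all 4 parental mice lay in chr12:57540776-57545872, from 1044 to 6140 bp after the gene start, which held 3854 and 1617 bp in B6, 4389 and 4844 bp in MSM, 3722 bp in the F1 BM and 1490 bp in the F1 MB hybrid. The region next to the start, chr12:57546206-57546884, had 679 bp in B6 mouse 1 and 550 and 584 bp in the MSM mice, and was not listed in the other three libraries. The height did not separate the strains, with a highest fold of 11.4 and 6.34 in B6, 8.10 and 8.26 in MSM, 6.18 in the F1 BM and 5.64 in the F1 MB hybrid. As percentiles of genes with a peak in the same list, these were the 83.5th and 73.0th in B6 and the 77.0th and 77.2nd in MSM. F1 BM was highest, at the 85.9th, and F1 MB lowest, at the 57.1st.

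Prox1 (ENSMUSG00000010175.13, chr1:190118035-190170714, minus strand) went the other way. It had 7386 and 5979 bp under peaks in the B6 mice, 5660 and 5623 bp in the MSM mice, 6179 bp in the F1 BM and 5405 bp in the F1 MB hybrid. Both B6 mice lay above both MSM mice, F1 BM lay between the B6 mice, and F1 MB lay below all parental mice. The difference, MSM minus B6, was -1041 bp against a pooled SD within strains of 704 bp (exact permutation test, two-sided, p = 0.333, which is the lowest attainable). It was -337.5 bp without B6 mouse 1 and -1744.5 bp without B6 mouse 2. With only peaks of at least 4-fold the strains overlapped. The region over the start, chr1:190168214-190170910, varied little, with 2668 and 2412 bp in B6, 2550 and 2440 bp in MSM, 2625 bp in the F1 BM and 2535 bp in the F1 MB hybrid. The difference lay in the region upstream of the gene, chr1:190170997-190175863, with 4867 and 3567 bp in B6, 3110 and 3183 bp in MSM, 3554 bp in the F1 BM and 2870 bp in the F1 MB hybrid. Its outer edge did not separate the strains, as the outermost peaks ended at -5149 and -4582 bp in B6 and at -4887 and -4831 bp in MSM. The window held 2 and 4 peaks in B6 and 5 and 5 in MSM. Prox1os, an antisense gene, starts 418 bp after the Prox1 start and is transcribed across that upstream region, so the acetylation cannot be ascribed to either gene.

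The rank of Prox1 was higher in length than in height. Its length within 5 kb of the start was at the 99.7th to the 99.9th percentile in every list, while its highest fold was 13.9 and 4.74 in B6, 8.10 and 9.87 in MSM, 6.92 in the F1 BM and 8.09 in the F1 MB hybrid. In fold it was at the 40.8th percentile in B6 mouse 2 and between the 77.0th and the 92.6th in the other lists. The B6 mice spanned all other libraries. The endothelial marker sum given above was likewise highest in B6 mouse 1 and lowest in B6 mouse 2, and its part in the Prox1 values was not tested.

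Foxa3 (ENSMUSG00000040891.6, chr7:19013284-19023538, minus strand) was the member whose height was separated between the strains. Its highest fold was 8.89 and 5.93 in the B6 mice, 5.24 and 5.39 in the MSM mice, 6.97 in the F1 BM and 4.67 in the F1 MB hybrid. Both B6 mice lay above both MSM mice, and the hybrids lay on either side of MSM. The lists differed in median fold, so percentiles of genes with a peak in the same list are given as well. They were the 66.7th and 66.6th in B6 and the 36.6th and 38.6th in MSM. F1 BM was highest, at the 90.9th, and F1 MB lowest, at the 35.8th. The difference in fold, MSM minus B6, was -2.09 against a pooled SD within strains of 1.48 (exact permutation test, two-sided, p = 0.333, which is the lowest attainable). It was -0.61 without B6 mouse 1 and -3.57 without B6 mouse 2. In MSM mouse 1 the highest peak was not in the gene but upstream, in chr7:19024468-19025293, next to the start of the neighbouring gene Sympk, which lies at -839 bp from the Foxa3 start. In the region over the Foxa3 exons, chr7:19020929-19023525, the fold was 8.89 and 5.93 in B6, 4.40 and 5.39 in MSM, 6.97 in the F1 BM and 4.67 in the F1 MB hybrid, and the strains did not overlap there either.

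In length Foxa3 overlapped between the strains, with 4130 and 1456 bp in B6, 1431 and 2052 bp in MSM, 2763 bp in the F1 BM and 1497 bp in the F1 MB hybrid. It also held the only one of the 44 acetylated regions of the members that both mice of a strain had and neither mouse of the other. Among the 27334 acetylated regions of the whole series, 3.06% were in both B6 lists and neither MSM list and 3.08% the reverse, so 1 of 44 is no more than usual. This intronic region, chr7:19015608-19016109, had 502 and 317 bp in B6, none in MSM, 486 bp in the F1 BM and 227 bp in the F1 MB hybrid, at folds of 3.21 to 5.81. Of the 44 regions, 18 were in all 6 lists, 12 were in a lone list, and 0 were in both MSM mice and neither B6 mouse. The shares of all 27334 regions in all 6 lists or in a lone list were not computed. These counts, and those of single genes, therefore cannot be set against a usual rate.

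**Figure D3:**
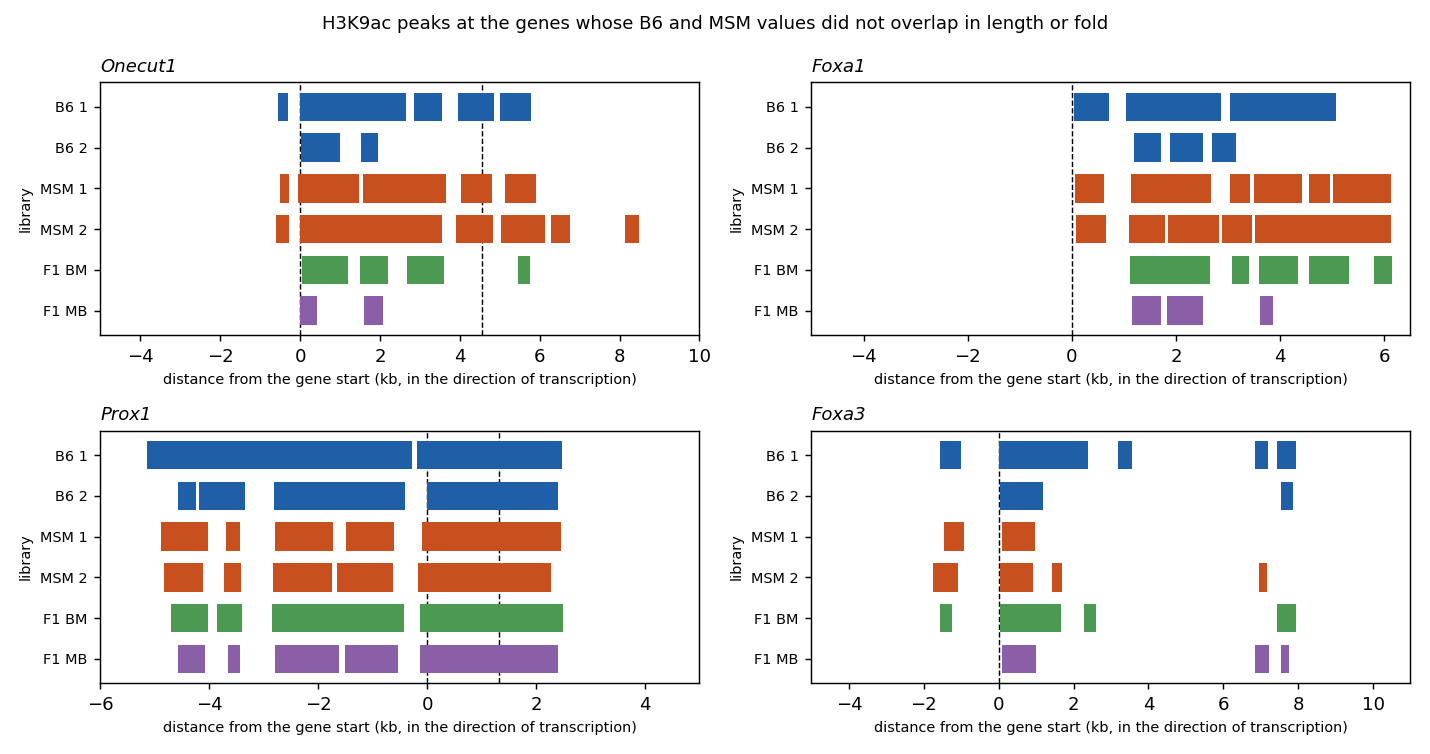
H3K9ac peaks of each library (rows, coloured boxes) at the genes whose B6 and MSM mice did not overlap, by distance from the gene start in kb, with dashed lines at annotated starts. The last peaks of the MSM rows end 5916 and 8482 bp downstream at Onecut1 and 6132 and 6131 bp downstream at Foxa1 (mouse 1, then mouse 2), and the B6 mouse 2 rows are the shortest of the parental rows there. Upstream of Prox1 the outermost peaks end at -5149 and -4582 bp in B6 and at -4887 and -4831 bp in MSM.

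Calls on the edges of the domains at the gene starts depended on the setting and on the mice kept. With peaks up to 500 bp apart joined and a gap of at least 200 bp between the strains required, 0 of the 7 members with a domain at the start in all 4 parental libraries reached further upstream in B6 (4.8% of 5186 genes) or in MSM (0.829%). Likewise, 0 of 7 reached further downstream in B6 (5.65%) or in MSM (2.16%). Without B6 mouse 1, 3 of 7 reached further upstream in MSM (15.4% of 5187 genes) and 4 of 7 further downstream (24.8%). Without B6 mouse 2, 1 of 8 reached further upstream in B6 (26% of 6717 genes) and 4 of 8 further downstream (30.1%). Leaving out an MSM mouse, or filtering or joining the peaks in other ways, gave at most 1 call in a direction. The share of all genes was not computed for these settings. Upstream reach was 2433 and 1525 bp in B6 and 2408 and 2393 bp in MSM at Cebpa, and 134 and 112 bp against 135 and 105 bp at Foxa2, and both pairs overlapped.

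**Figure D4:**
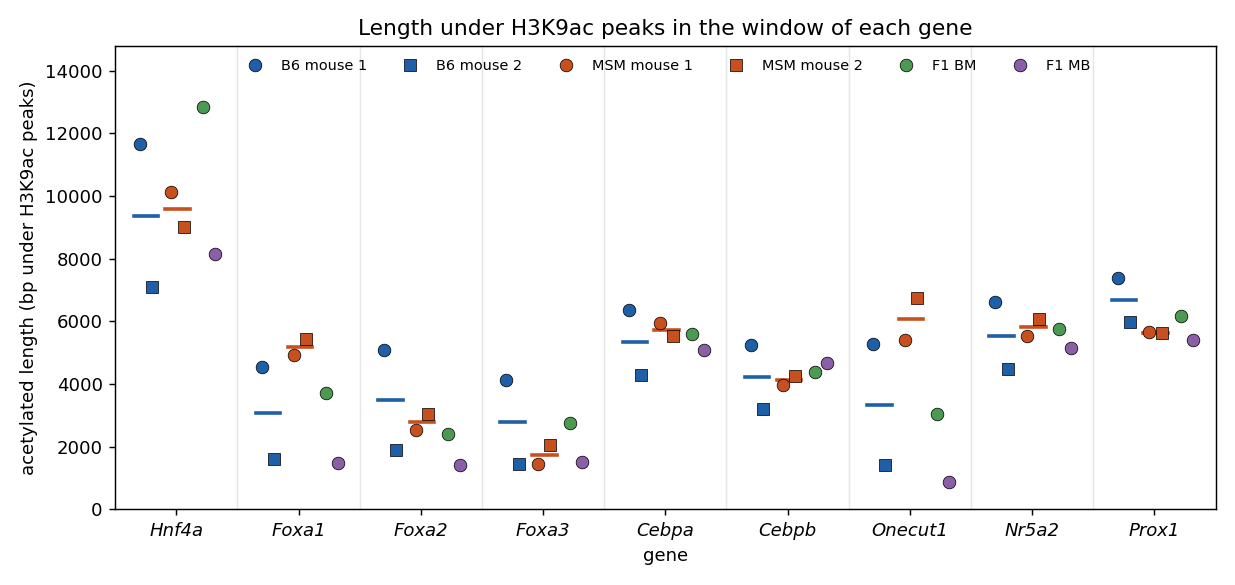
Acetylated length, in bp under H3K9ac peaks in the window of each gene, for every library, with a bar at the mean of the B6 mice and of the MSM mice. The MSM points lie above the B6 points at Foxa1 and Onecut1 and below them at Prox1, and elsewhere the MSM points overlap with or lie between the B6 points.

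**Figure D5:**
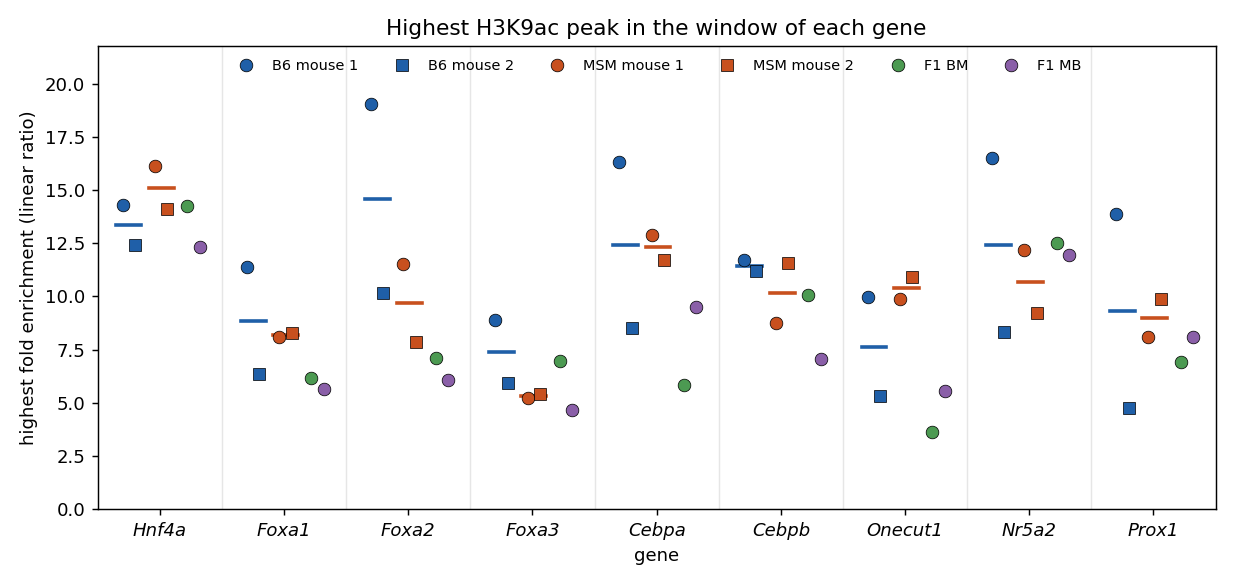
Highest fold enrichment, a linear ratio, among the H3K9ac peaks in the window of each gene for every library, with a bar at the mean of the B6 mice and of the MSM mice. At Foxa3 the B6 points (8.89 and 5.93) lie above the MSM points (5.24 and 5.39), and Foxa2 in B6 mouse 1 is the highest point, at 19.0.

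These strain calls rested on unequal B6 lists, so they were repeated without each parental library. Without B6 mouse 1, 7 of 9 members were longer in both MSM mice, as were 61.2% of all genes, and 6 of 9 were higher in fold in both MSM mice, as were 60.2% of genes. Without B6 mouse 2, 7 of 9 were longer in B6, as were 84.2% of all genes, and 7 of 9 were higher in fold in B6, as were 69.8% of genes. With every list limited to the same number of peaks, Onecut1 remained longer in MSM and Prox1 in B6, Foxa3 was also longer in B6, and Foxa1 overlapped, so that 2 of 9 members were longer in B6 (19.3% of genes) and 1 of 9 in MSM (8.87%). With every list limited to the same covered length, Foxa1 (by 2238.5 bp) and Onecut1 (by 2263 bp) remained longer in MSM and Prox1 in B6 (MSM minus B6, -2671.5 bp), and Foxa3 was again longer in B6, that is 2 of 9 in B6 (15.6% of genes) and 2 of 9 in MSM (17.5%). With only peaks of at least 4-fold, Onecut1 alone remained separated in length (1 of 9 in MSM against 5.56% of genes, and 0 of 9 in B6 against 10.5%). Without the gene body Foxa1 overlapped, which left 1 of 9 in MSM (4.4% of genes) and 1 of 9 in B6 (12.1%).

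The median log2 ratio of MSM to B6 length was 0.07 over the 9 members and -0.07 over 6706 genes with a peak in all 4 parental libraries. The summed length of the 9 genes was 56317 and 31392 bp in B6, 45498 and 47785 bp in MSM, 46696 bp in the F1 BM and 33731 bp in the F1 MB hybrid, and its order followed the covered length of the lists except that F1 BM fell below MSM mouse 2. The 9 genes took between 0.351% and 0.50% of all covered bp, with the lowest share in B6 mouse 1 and the highest in B6 mouse 2.

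Other transcription factor genes of liver, the paralogs of the members and factors of other tissues were set beside the members. Of 20 other liver transcription factor genes, 16 had a peak at the start in all 6 lists, against 23.6% of all protein-coding genes. The mean lengths of these 20 genes ran from 10886 bp at Zbtb20 to 413 bp at Esrra. Longer in both MSM mice were 2 of them (Zbtb20 and Creb3l3), against 4.97% of all genes, and 0 were longer in both B6 mice, against 11.6%. Of 8 paralogs of the members, 3 had a start peak in all 6 lists, against the same 23.6% of genes. A further 4 (Hnf4g, Cebpe, Onecut3 and Nr5a1) had no peak in any list, while Onecut2 had the longest mean, 3897 bp. Among 10 factors that define other tissues, 9 had no peak in any list, and Gata1 had 422 bp in MSM mouse 2 alone. These counts of 4 and 9 genes without a peak have no usual rate beside them, as that share of all genes was not computed. Lack of a peak was common, as only 11446 of 21911 protein-coding genes had one in the window in any parental list.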

How the data were processed

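H3K9ac ChIP-seq libraries of 6 adult mouse livers were used. Liver was fixed in 1% formaldehyde for 15 min and sequenced as 50-bp pairs. Per the labels, processing used Trim Galore, HISAT2, SAMtools and MACS2 on mm10 (GRCm38), while the study's methods name Bowtie 2, and the aligner is therefore uncertain. Peak calling settings are not given in the sources used here. Since B6 served as the reference for all mice, MSM reads over divergent sequence could be lost. The authors deposited 1 narrowPeak list per library. The deposited fold enrichment is a linear ratio, and the deposited −log10 p-value, −log10 q-value and score were used only as filters or not at all. The summit position of the deposited lists (other values) served for the alternatives that required a summit in the gene window or within 1 kb of the gene start.

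Length under peaks and highest fold were computed per gene with Python 3.11.15, numpy 2.4.6 and matplotlib 3.10.9, with an overlap of at least 1 bp. Percentiles refer to genes with a value above 0 in the same list. Differences were tested by exact permutation (two-sided) of the 4 parental libraries, which can be assigned in 6 ways. The functions were first tested on simulated lists. By rule, named genes were all 9 members, the longest and shortest gene of each other list (unless several shared 0 bp), and the 5 nearest to Hnf4a. Neighbouring genes, and list genes named beside a small count, were added after their values were seen. The members and lists were chosen with earlier results of these data known. Peaks, not reads, were analysed, so depth and counting error are not given.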

Additional observations from a re-analysis of the deposited data

How the results depend on the processing

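The alternatives that kept all libraries, apart from the replicate block described below, gave 80 MSM minus B6 differences in acetylated length. Of these, 68 kept their direction. Thresholds on peaks mostly leave the highest peak of a gene in place by construction, so the highest fold hardly tests them. The replicate numbers share no label of a common source, the deviations of same-numbered B6 and MSM mice from their strain means correlated at -0.02 across 6706 genes, and no paired test was run on the 2 pairs. Under the replicate block, setting same-numbered mice against each other, 1 member was longer in B6 and 2 in MSM, as without it. The fold was higher in B6 for 2 and in MSM for 1. The share of all genes called was not computed under the block. Hnf4a length changed to -125 bp when all lists were limited to 11619 peaks (the same number), -651 bp with the same covered length, -353 bp at −log10 q of at least 5 and -433.5 bp at fold of at least 4, and Cebpb length to 35, 54, 159.5 and 35 bp. Cebpb was at 78.5 bp with 2 kb and 6 bp with 10 kb around the start, Nr5a2 length at -308.5 bp with 10 kb and -58.5 bp without the gene body, and Foxa1 fold at 4.04 with 10 kb. The cause was not tested. Hnf4a had no value without the gene body. Members longer in B6 numbered 2 with the same number of peaks, 2 with the same covered length and 0 at fold of at least 4, and members longer in MSM numbered 1 with the same number of peaks, 1 at fold of at least 4 and 1 without the gene body. Reach further downstream in B6 was called for 1 member with the same number of peaks, the same covered length or −log10 q of at least 5. The same count was called with peaks not joined or peaks up to 1000 bp apart joined. Downstream in MSM it was 1 with the same number or the same covered length. Upstream it was 1 in B6 with the same covered length, and 1 in MSM at −log10 q of at least 5 or fold of at least 4. For reach, the share of all genes was computed only for the main setting and without each B6 mouse. With each parental library left out in turn, the length difference (MSM minus B6) ran from -2101.5 to 2494.5 bp for Hnf4a, -2309 to 897 for Foxa2, -2388.5 to 285.5 for Foxa3, -645 to 1448 for Cebpa, -1140 to 899 for Cebpb and -806.5 to 1330.5 for Nr5a2, and the fold difference from -3.19 to 1.85 for Foxa1, -4.03 to 3.80 for Cebpa, -2.69 to 0.13 for Cebpb, -5.83 to 2.34 for Nr5a2 and -4.89 to 4.25 for Prox1. Members longer in B6 ran from 1 to 7 and in MSM from 2 to 7, members higher in fold in B6 from 1 to 7 and in MSM from 0 to 6, and members reaching further from 0 to 1 (upstream, B6), 0 to 3 (upstream, MSM), 0 to 4 (downstream, B6) and 0 to 4 (downstream, MSM). The count of 7 members with a start peak in all 6 lists was 6 or 7 under the other alternatives. It was also 7 without each library in turn, an alternative chosen after seeing the data that could not lower it. No depth was used, and 2 mice per strain limit every comparison.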
